A study of Mus musculus with 9 samples.

Results

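The genes described are 45 genes of the DNA damage response and of DNA repair, picked by gene symbol for their known roles. Earlier results of these data were known when they were picked. All 45 were among the 48587 genes of a table of read counts from mouse hindbrains, and 44 of them were among the 15695 genes with enough counts to be tested. The libraries came from hindbrains of C57BL/6N embryos at E9.5 (embryonic day 9.5), without treatment, and carried 1 of 3 genotypes of Zfp423, a gene for a zinc finger transcription factor. Wild-type (wt) embryos were littermates of mutants, d9-20 embryos had a deletion of exon 4 and a protein without zinc fingers 9 to 20, and d28-30 embryos had a deletion of exons 6 and 7 and a protein without zinc fingers 28 to 30, per the labels. Each genotype had 3 libraries, with the replicate number of the title, and with 3 for a title without a number. The labels state neither which mutant line the wt littermates came from, nor whether the mutants were homozygous, nor whether a library held 1 embryo or several, so the p-values cover the spread among these libraries and nothing beyond it.

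Cells answer broken or unreplicated DNA with sensor kinases that mark the damage, halt the cell cycle and call in repair enzymes. Breaks can be copied back from a sister chromatid by homologous recombination, which is used in dividing cells, or joined end to end, while damaged or mismatched bases are cut out and replaced. The hindbrain wall at this stage is made largely of dividing neural progenitors, in which many of these genes are transcribed as part of DNA replication. The human counterpart of Zfp423, ZNF423, has been linked to DNA damage signalling through binding of its protein to PARP1, which is the reason these genes are of interest in Zfp423 mutants.

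Library totals were 16903382 to 24216412 counts, at which 3 counts correspond to 0.126 to 0.177 CPM (counts scaled to library size and corrected for library composition). Zfp423 itself was at 101 to 118 CPM in the wt libraries, 155 to 194 CPM in d9-20 and 159 to 183 CPM in d28-30, and a count over the whole gene does not check the deletions. Marker genes fitted the labelled tissue: 14 hindbrain and neural tube genes summed to 1001 to 1311 CPM per library, none of them at 0, and 8 forebrain genes to 7.04 to 20.2 CPM. Other cell types were present in the dissected tissue, among them red blood cells, whose 11 marker genes summed to 4130 to 7869 CPM in wt, 3655 to 4234 CPM in d9-20 and 4333 to 6476 CPM in d28-30. In bulk tissue, fewer cells of a type and less RNA per cell cannot be told apart. Sex differed between libraries. In wt replicate 1, Y-linked genes were at 205 CPM and Xist, an RNA of female cells, at 3.44 CPM. Replicate 1 of d9-20 and d28-30 had 0.0506 and 0.0589 CPM, and 1646 and 1499 CPM. Replicate 2 of each genotype held both, at 63.7 to 122 CPM and 588 to 1282 CPM, so these libraries held RNA of both sexes. Replicate 3 was male in each, with Xist at 0.206 to 0.940 CPM. Both mutants thus had an all-female library and wt had none. The library d28-30 replicate 2 stood apart, with a chi-square per degree of freedom of 29.1 and 34.7 against the other d28-30 libraries, beside 5.24 between those, and with 2.07% mitochondrial counts beside 0.904% to 1.42% elsewhere. Where medians of gene groups in d28-30, or fold changes that turn on it, are printed, they are therefore given with and without it.

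The tested genes together took 0.445% to 0.466% of all counts in every library, and they differed widely from each other in level. In wt the median gene was at 67.6 CPM, or 16.2 CPM per kilobase of its principal transcript, and 13 genes were above 100 CPM. Per kilobase, Parp1, which marks broken DNA with chains of ADP-ribose, was highest at 160 ± 4.93 (SD, n = 3), followed by H2afx, the histone variant phosphorylated around breaks, at 147 ± 21.2, and by Lig1, the ligase that seals Okazaki fragments, at 103 ± 4.39. A second tier near 54 CPM per kilobase held Xrcc1, a scaffold of single-strand break repair, Topbp1, an activator of the kinase ATR, and Msh6, which recognises mismatched bases. At the low end of the tested genes, Xrcc4, a partner of DNA ligase IV, was at 3.97 ± 0.336, Wrn, the Werner helicase, at 3.96 ± 0.348 and Rnf8, a ubiquitin ligase at breaks, at 1.96 ± 0.0943 CPM per kilobase. Of the 43 pairs of neighbours in the wt order, 32 overlapped in their libraries, Parp1 and H2afx among them, so most of the order is not resolved beyond the spread. The first 3 ranks and the last tested rank were held by the same genes in all 3 genotypes. Rnf8, at that last rank, shares 13.2% of its exon bases with Gm28043 on the same strand in GENCODE M21. How reads over both genes were counted is not given, so its level and rank carry that limit.

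**Figure D1:**
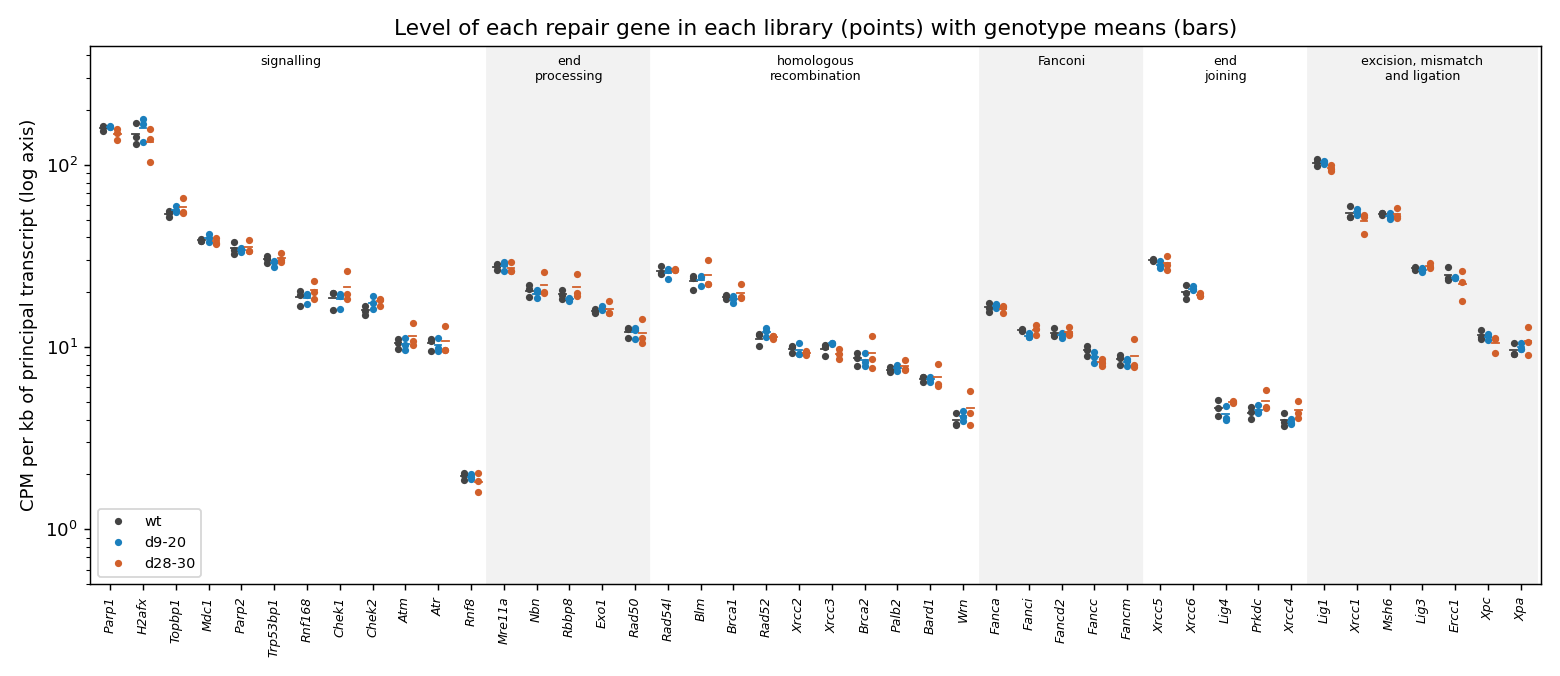
Level of each tested repair gene in every library, in CPM per kilobase of principal transcript on a log axis, grouped by role, with points for libraries and short bars for genotype means. Genes differ from 160 (Parp1) to 1.96 (Rnf8) in wt, while the 3 genotypes of a gene lie close together, with the lone high or low d28-30 point of many genes belonging to replicate 2.

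Atrip, the partner of ATR that brings the kinase to single-stranded DNA, was the gene that could not be tested. It had 6, 8 and 3 counts in wt replicates 1 to 3, 5, 2 and 2 in d9-20 and 6, 3 and 5 in d28-30. Of its exon bases, 16.0% are shared with Trex1 on the same strand in GENCODE M21 (GRCm38), and how the counting treated reads over both genes is not given in the sources used here. These counts therefore set no level for Atrip.

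No repair gene differed between genotypes after adjustment in any comparison. In d9-20 against wt, 0 of 44 passed an adjusted p of 0.05 (edgeR's quasi-likelihood test with Benjamini-Hochberg adjustment over all 15695 genes), beside 26 of all genes, or 0.166%. In d28-30 against wt it was 0 of 44 beside 25 of all genes, or 0.159%. Between the mutants it was 0 of 44 and 0 of all genes, or 0%, and for the mean of both mutants against wt 0 of 44 beside 40 of all genes, or 0.255%. DESeq2 and limma-voom also called 0 of 44 in each of these comparisons. Calls were so few in the whole table that a count of 0 among 44 genes does not set these genes apart from the background.

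Unadjusted p-values below 0.05 were as scarce. In d9-20 against wt 0 of 44 genes had one, by edgeR, DESeq2 and limma-voom alike, beside 5.96% of all genes by edgeR, and the smallest adjusted p was 0.9999. Fancc was the gene with one in d28-30 against wt (background 8.08%) and in the mean of both mutants against wt (background 5.8%), with smallest adjusted p of 0.596 and 0.853. Lig4 was the gene with one between the mutants (background 9.58%), where the smallest adjusted p was 0.514. A test for any difference among the 3 genotypes gave 0 of 44, beside 0.166% of all genes, with 0 of 44 at an unadjusted p below 0.05 beside 8.28% and a smallest adjusted p of 0.642. With the replicate number as a block for all 3 genotypes, d9-20 against wt gave 0 of 44 genes beside 55 of all genes. The smallest adjusted p was then 0.81. The labels state no pairing, and a check of it did not settle whether the numbers pair the libraries.

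In d9-20 against wt the 44 log2 fold changes ran from -0.13 to 0.14 with a median of -0.01 (all genes 0.00), 18 above and 26 below 0. In d28-30 against wt they ran from -0.22 to 0.22 with a median of 0.02 (all genes 0.00), 27 above and 17 below 0. Their median standard error was 0.09 in both comparisons. In both comparisons with wt, the 95% intervals of all 44 genes, not adjusted for their number, lay within a 1.5-fold change in either direction. The interval ends farthest from 0 were -0.35 for Lig4 and 0.46 for H2afx in d9-20, and -0.49 for H2afx and 0.54 for Wrn in d28-30. Between the mutants, 43 of 44 intervals lay within 1.5-fold, and that of H2afx reached 0.61. All these intervals are from the main fit, and those of other settings are not given. With a covariate for the share of red blood cell genes, the log2 fold changes of d9-20 against wt ran wider, from -0.26 to 0.32. Their median standard error was then 0.12, so the 1.5-fold bound is stated for the main fit only.

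**Figure D2:**
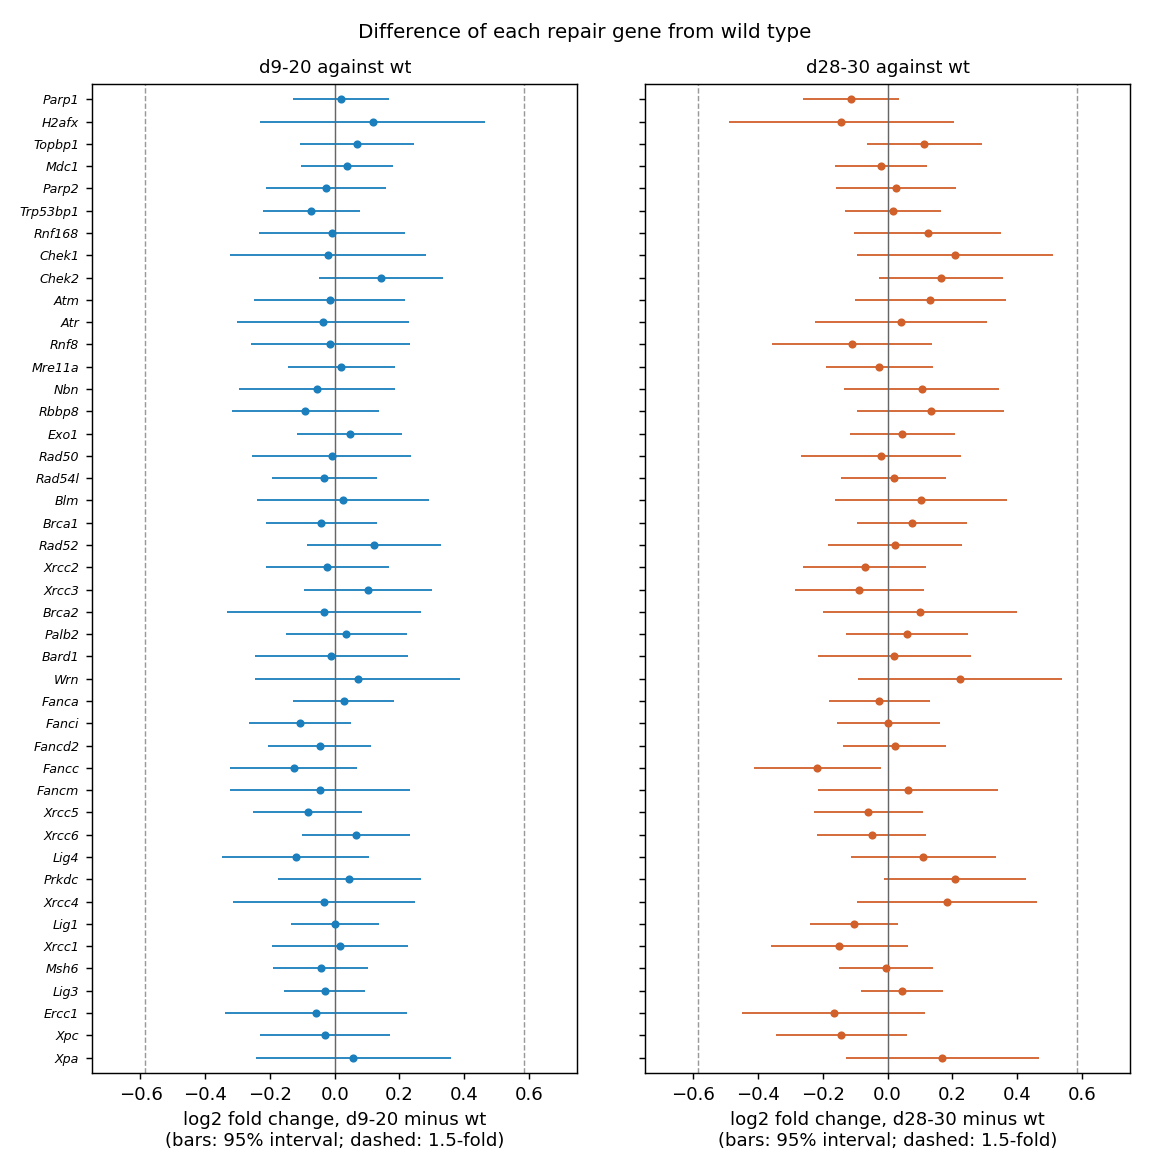
Log2 fold change of each of the 44 tested repair genes against wt, for d9-20 (left) and d28-30 (right), with 95% intervals that are not adjusted for the number of genes. Dashed lines mark a 1.5-fold change, and every interval stays between them, with those of H2afx, Wrn and Chek1 the widest.

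Among the 12 tested signalling genes the median log2 fold change was -0.01 in d9-20 and 0.03 in d28-30 against wt, the latter 0.00 without d28-30 replicate 2. Parp1 was at 598, 624 and 635 CPM in wt replicates 1 to 3, at 633, 625 and 624 CPM in d9-20 and at 579, 531 and 607 CPM in d28-30. Parp1 lies at chr1:180568924-180601254 (plus strand, GRCm38). Its d9-20 libraries lay inside the wt range, and all d28-30 libraries lay below all d9-20 libraries but overlapped wt. Its log2 fold change against wt was 0.02 ± 0.07 (SE) in d9-20 and -0.11 ± 0.07 in d28-30 (adjusted p = 0.612), or -0.06 without d28-30 replicate 2.

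The sensor kinases did not pass the test. Atm, the kinase that responds to double-strand breaks, was at 109, 103 and 95.9 CPM in wt, 110, 99.9 and 94.6 CPM in d9-20 and 105, 132 and 99.9 CPM in d28-30. Atr, its counterpart for stalled replication, was at 87.5, 90.1 and 77.2 CPM in wt, 90.7, 80.2 and 77.5 CPM in d9-20 and 78.5, 106 and 77.8 CPM in d28-30. Both were highest in d28-30 replicate 2, and the genotypes overlapped in every pairing. Against wt, Atm was at a log2 fold change of -0.02 ± 0.11 in d9-20 and 0.13 ± 0.11 in d28-30, the latter 0.00 without that library. Atr was at -0.04 ± 0.12 in d9-20 and 0.04 ± 0.12 in d28-30, the latter -0.12 without that library. With each library corrected for GC content, Atr was at -0.15 in d28-30, with an unadjusted p below 0.05 in edgeR's test. The smallest adjusted p of the repair genes in that fit was 0.358.

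Of the checkpoint kinases downstream, Chek1, which acts mostly below ATR, was at 75.03, 75.1 and 60.7 CPM in wt, 72.0, 74.5 and 61.5 CPM in d9-20 and 74.2, 99.4 and 70.1 CPM in d28-30. Here too the value of d28-30 replicate 2 was the highest, and the log2 fold change of d28-30 against wt was 0.21 ± 0.14 with it and 0.04 without it. Chek2, which acts mostly below ATM, was at 36.0, 38.2 and 34.2 CPM in wt, 43.4, 39.7 and 36.7 CPM in d9-20 and 41.9, 41.3 and 38.4 CPM in d28-30. All 3 d28-30 libraries lay above all 3 wt libraries, by a narrow margin, and d9-20 overlapped wt. Its log2 fold change was 0.14 ± 0.09 in d9-20 (adjusted p = 0.9999) and 0.16 ± 0.09 in d28-30 (adjusted p = 0.61), the latter 0.15 without d28-30 replicate 2.

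At the break itself, Trp53bp1, whose product 53BP1 shields ends from resection, was at 304, 280 and 292 CPM in wt, 284, 266 and 283 CPM in d9-20 and 282, 315 and 289 CPM in d28-30, with the genotypes overlapping. Of its exon bases 15.04% are also covered by Tubgcp4 on the opposite strand. Rnf8 was at 10.1, 11.1 and 10.7 CPM in wt, 10.2, 10.4 and 10.9 CPM in d9-20 and 9.90, 8.67 and 10.97 CPM in d28-30, again with overlap throughout. H2afx, given here for the width of its interval and chosen after its values were seen, was at 179, 196 and 236 CPM in wt, 185, 231 and 247 CPM in d9-20 and 193, 144 and 217 CPM in d28-30. The genotypes overlapped, and replicate 3 was the highest library of each.

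The 5 genes that trim broken ends had medians of -0.01 in d9-20 and 0.05 in d28-30. Without d28-30 replicate 2 the latter was -0.03, with all 5 genes below 0. Rbbp8, which encodes CtIP and starts resection, was at 72.2, 68.4 and 65.1 CPM in wt, 64.9, 62.8 and 65.4 CPM in d9-20 and 69.5, 89.1 and 66.8 CPM in d28-30. All d9-20 libraries lay below all d28-30 libraries, by a log2 difference of -0.22 ± 0.10 (adjusted p = 0.523), or -0.08 without d28-30 replicate 2. Nbn, the NBS1 subunit of the MRN complex that first binds breaks, was at 52.5, 55.2 and 47.4 CPM in wt, 52.0, 50.6 and 46.9 CPM in d9-20 and 50.4, 65.5 and 50.8 CPM in d28-30. Exo1, an exonuclease that extends resection, was at 120, 126 and 122 CPM in wt, 126, 131 and 124 CPM in d9-20 and 119, 140 and 120 CPM in d28-30. For both genes the genotypes overlapped and d28-30 replicate 2 was the highest library. Mre11a and Rad50, the other MRN subunits, were within 0.03 of 0 on the log2 scale in both comparisons with wt. Without d28-30 replicate 2 their log2 fold changes in d28-30 were -0.08 ± 0.07 and -0.16 ± 0.08 (adjusted p = 0.995 and 0.891).

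Homologous recombination was covered by 10 genes, with medians of 0.01 in d9-20 and 0.04 in d28-30. The latter was -0.03 without d28-30 replicate 2, with 7 of 10 genes below 0. Brca1, which promotes resection and repair by recombination, was at 124, 126 and 121 CPM in wt, 125, 121 and 115 CPM in d9-20 and 122, 146 and 124 CPM in d28-30. Its log2 fold changes were -0.04 ± 0.08 in d9-20 and 0.08 ± 0.08 in d28-30, the latter -0.01 without replicate 2, with overlap between all genotypes. Xrcc3, a factor of homologous recombination, was at 21.7, 24.9 and 24.3 CPM in wt, 25.4, 25.1 and 25.6 CPM in d9-20 and 23.7, 20.8 and 22.3 CPM in d28-30. The d9-20 libraries lay above all others, by 0.10 ± 0.09 against wt (adjusted p = 0.9999) and by 0.19 ± 0.09 against d28-30 (adjusted p = 0.53), the latter 0.14 without d28-30 replicate 2. Wrn was at 27.3, 23.6 and 23.5 CPM in wt, 27.7, 24.7 and 25.8 CPM in d9-20 and 23.5, 36.2 and 27.1 CPM in d28-30. With overlap between all genotypes, its log2 fold change of 0.22 ± 0.14 in d28-30 was 0.03 when replicate 2 of that genotype was left out.

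The 5 genes of the Fanconi pathway, which unhooks crosslinks between DNA strands, had medians of -0.05 in d9-20 and 0.00 in d28-30. The latter was -0.04 without d28-30 replicate 2. Among them, Fancc had the smallest p of all 44 genes in d28-30 against wt. This subunit of the core complex, encoded at chr13:63285043-63497278 (minus strand, GRCm38), was at 30.7, 28.2 and 32.1 CPM in wt, 27.8, 25.9 and 29.6 CPM in d9-20 and 26.0, 24.9 and 27.4 CPM in d28-30. All 3 d28-30 libraries lay below all 3 wt libraries, with d9-20 between and overlapping both. The log2 fold change was -0.22 ± 0.09 in d28-30 (unadjusted p = 0.0330, adjusted p = 0.596) and -0.13 ± 0.09 in d9-20 (adjusted p = 0.9999). Without d28-30 replicate 2 it was -0.18 (unadjusted p = 0.0647, adjusted p = 0.846), and 18.6% of its exon bases are covered by genes on the opposite strand.

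The genes of the protein pair on which that core complex acts did not pass the test either. Fancd2 was at 64.3, 63.5 and 70.2 CPM in wt, 66.1, 61.5 and 64.1 CPM in d9-20 and 64.2, 70.8 and 65.9 CPM in d28-30. Fanci was at 56.8, 58.7 and 57.9 CPM in wt, 52.6, 52.8 and 55.5 CPM in d9-20 and 53.8, 61.3 and 58.4 CPM in d28-30. The d9-20 libraries of Fanci lay below all wt libraries, by -0.11 ± 0.07 (adjusted p = 0.9999), while those of Fancd2 overlapped wt. Fanci shares 16.0% of its exon bases with Polg on the opposite strand.

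End joining was represented by 5 genes, with medians of -0.03 in d9-20 and 0.11 in d28-30, the latter 0.09 without d28-30 replicate 2. Prkdc, the catalytic subunit of DNA-PK that holds the ends, was at 59.4, 55.5 and 50.9 CPM in wt, 60.8, 55.4 and 54.9 CPM in d9-20 and 58.9, 73.2 and 59.4 CPM in d28-30. Of its d28-30 libraries, replicates 1 and 3 lay just below the highest wt library and replicate 2 above all of wt, and the log2 fold change of 0.21 ± 0.10 (adjusted p = 0.61) was 0.10 without d28-30 replicate 2. Lig4, the ligase of this pathway, lies at chr8:9969049-9977686 (minus strand, GRCm38) and was at 23.4, 25.6 and 21.03 CPM in wt, 20.5, 23.9 and 20.0 CPM in d9-20 and 25.2, 25.6 and 24.9 CPM in d28-30. All d9-20 libraries were below all d28-30 libraries and both overlapped wt, with a log2 difference between the mutants of -0.23 ± 0.10 (unadjusted p = 0.0454, adjusted p = 0.514). That difference stayed at -0.22 without d28-30 replicate 2 but was -0.09 when each library was corrected for GC content.

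Xrcc4 was at 5.97, 5.68 and 6.68 CPM in wt, 6.18, 5.85 and 5.88 CPM in d9-20 and 6.24, 7.79 and 6.72 CPM in d28-30. The d9-20 libraries lay below all d28-30 libraries, by -0.22 ± 0.13 on the log2 scale (adjusted p = 0.572), or -0.12 without d28-30 replicate 2. The Ku subunits, which cap the ends, did not pass the test. Xrcc5 had all d9-20 libraries below wt, by -0.08 ± 0.08, and was at -0.06 ± 0.08 in d28-30. Without d28-30 replicate 2 the latter was -0.13 ± 0.06 (unadjusted p = 0.0499955, adjusted p = 0.801), and with the GC correction -0.14 ± 0.05 (unadjusted p = 0.0209, adjusted p = 0.362). Xrcc6 had all d9-20 libraries above d28-30.

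The 7 genes of excision repair, mismatch repair and single-strand ligation had medians of -0.03 in d9-20 and -0.10 in d28-30, the latter -0.05 without d28-30 replicate 2. Lig1 was at 312, 329 and 340 CPM in wt, 328, 332 and 323 CPM in d9-20 and 316, 296 and 301 CPM in d28-30. Xrcc1 was at 131, 130 and 150 CPM in wt, 134, 136 and 146 CPM in d9-20 and 134, 106 and 131 CPM in d28-30. For both, all d9-20 libraries lay above all d28-30 libraries and both mutants overlapped wt, with log2 differences between the mutants of 0.11 ± 0.06 and 0.17 ± 0.10 (adjusted p = 0.572 for each). Without d28-30 replicate 2 these were 0.08 and 0.06. Xpc, which finds bulky lesions for nucleotide excision repair, was at 40.5, 41.4 and 45.03 CPM in wt, 42.8, 39.7 and 41.7 CPM in d9-20 and 40.4, 33.8 and 40.8 CPM in d28-30. Its lowest library was d28-30 replicate 2, and its log2 fold change of -0.14 ± 0.09 in d28-30 was -0.06 without it.

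Counting the genes whose libraries did not overlap between genotypes gave shares near or below the background. In d9-20 against wt there were 3 of 44 (Xrcc3 higher, Fanci and Xrcc5 lower), beside 11.2% of all tested genes. In d28-30 against wt there were 2 (Chek2 higher, Fancc lower), beside 12.8%. Between the mutants there were 9 (Parp1, Xrcc3, Xrcc1, Xrcc6 and Lig1 higher in d9-20, and Rbbp8, Xrcc4, Lig3 and Lig4 lower), beside 16.8%. No gene had all 6 mutant libraries on 1 side of all wt libraries, beside 3.27% of all genes.

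What the repair genes did share was an ordering by GC content within single libraries. In d28-30 replicate 2, each gene's deviation from its mean over the 9 libraries fell with the GC content of its principal transcript, with a Pearson r of -0.90 and a Spearman rho of -0.87 across the 44 genes, which are not independent replicates. The 11 genes with the lowest GC content (40.8% to 44.3%), among them Atr, Chek1, Brca2 and Prkdc, all lay above their means there, by a median of 0.33 on the log2 scale. The 11 with the highest (51.0% to 62.3%), among them Parp1, H2afx, Xrcc1 and Ercc1, an endonuclease subunit of excision repair, all lay below, by a median of -0.19. Of the 44 genes, 22 were within 0.2 of their mean in this library, beside 40 to 44 in each of the other 8.

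Orderings of the opposite sign appeared in replicate 3 of wt (r of 0.75) and of d9-20 (r of 0.87). Their deviations were smaller, with an SD over the 44 genes of 0.126 and 0.101, beside 0.237 in d28-30 replicate 2. In the remaining 6 libraries r was between -0.43 and 0.44. As deviations are from the mean of all 9 libraries, a slope in 1 library tilts the others the opposite way. Over all 15239 tested genes with a known GC content, r was -0.66 in d28-30 replicate 2. It was 0.46 and 0.41 in replicate 3 of wt and d9-20, so the ordering was not confined to repair genes. The fold changes carried it as well: across the 44 genes, the log2 fold change of d28-30 against wt had an r of -0.78 with GC content, which was -0.12 without d28-30 replicate 2, and that of d9-20 against d28-30 had an r of 0.88, which was 0.38 without it. Without that library, 15 of the 44 genes were above and 29 below 0 in d28-30 against wt, with 16 genes on the other side of 0 than before. For d9-20 against wt, r with GC content was 0.32 across the 44 genes and 0.00 over all 15239 genes. With 1 library left out, the value for the 44 genes ran from -0.06 (without wt replicate 1) to 0.68 (without wt replicate 3). What gave rise to the ordering was not tested.

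**Figure D3:**
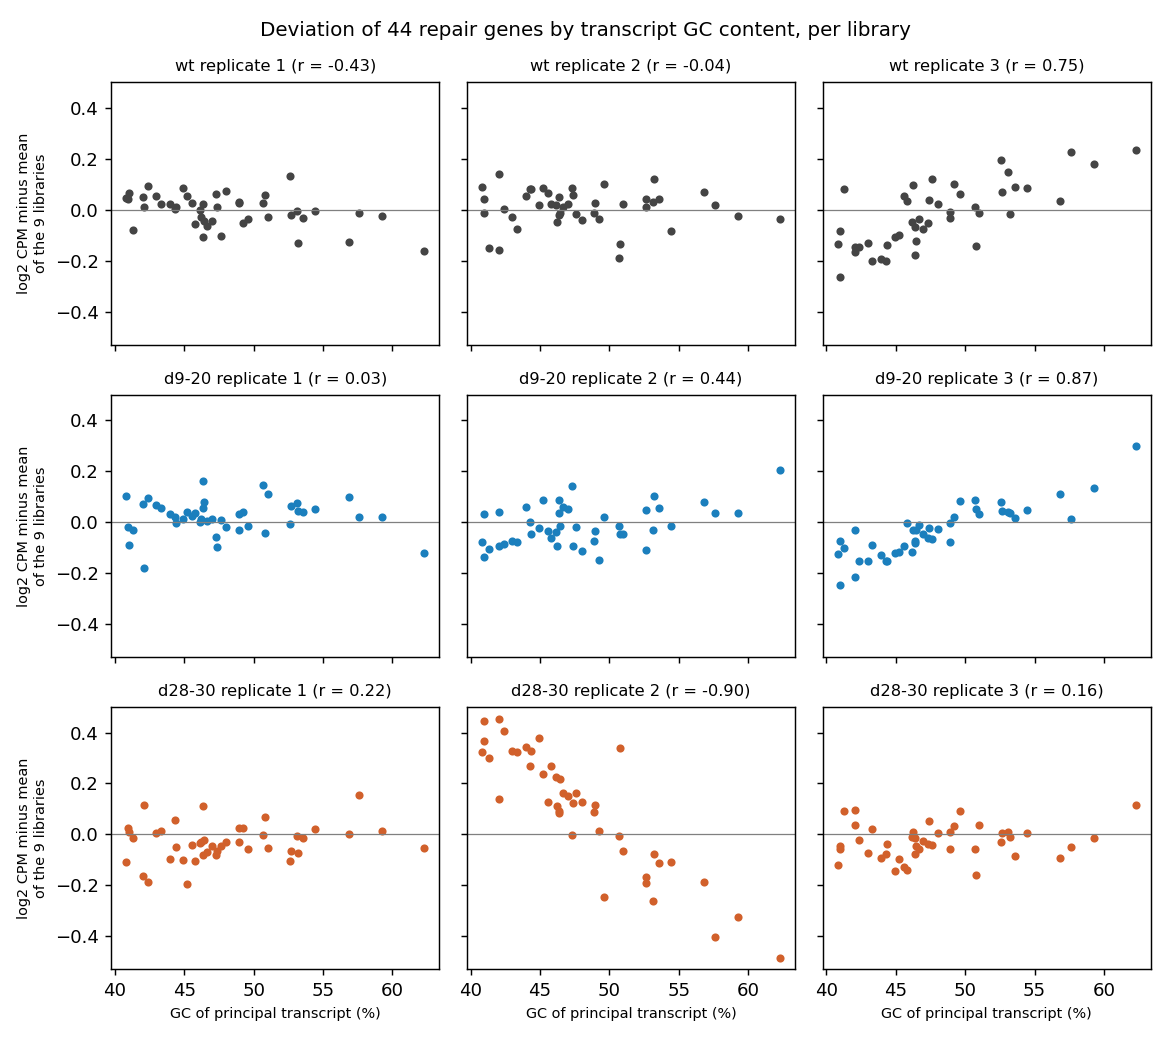
Deviation of each of the 44 repair genes from its mean over the 9 libraries (log2 CPM), plotted against the GC content of its principal transcript in percent, with 1 panel a library and 1 point a gene. The points slope down steeply in d28-30 replicate 2 (r = -0.90), slope up in replicate 3 of wt and d9-20 (0.75 and 0.87) and show weaker slopes elsewhere.

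Some promoters of the repair genes held an E2F-type motif, shown here because many of these genes are transcribed with DNA replication. E2F factors, which drive such genes, bind sites of the forms TTTCCCGC, TTTGGCGC, TTTCGCGC and TTTGCCGC, and these 8-letter strings were searched on both strands of the window from 250 bases before to 50 after the annotated start (RefSeq, GRCm38.p6). A window was found for 35 of the 45 genes, and 8 of these held a match (22.9%), beside 4.56% of 11082 tested genes and 2.6% of 27025 genes with a window. CCAAT, a common promoter element, was in 54.3% of the 35, beside 42.8% of the tested genes. The following 30-base stretches, read on the strand of the gene, hold the E2F-type match in capitals, which is the reverse complement where it begins with GCG.
Chek2 (chr5:110839820-110839849, plus strand): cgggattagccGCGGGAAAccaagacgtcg
Mdc1 (chr17:35841471-35841500, plus strand): tcttcagcctgTTTCCCGCcggtagccgca
Topbp1 (chr9:103305187-103305216, plus strand): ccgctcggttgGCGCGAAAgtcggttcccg
Brca2 (chr5:150522442-150522471, plus strand): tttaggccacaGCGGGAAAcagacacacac
Bard1 (chr1:71103163-71103192, minus strand): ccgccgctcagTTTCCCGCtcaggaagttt
Xrcc6 (chr15:82016312-82016341, plus strand): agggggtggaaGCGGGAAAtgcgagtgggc
Lig1 (chr7:13278841-13278870, plus strand): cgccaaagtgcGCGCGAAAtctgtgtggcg
Msh6 (chr17:87975054-87975083, plus strand): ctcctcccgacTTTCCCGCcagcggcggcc

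A match describes the letters of the window and is not evidence of a bound site. The 8 genes with a match had a median log2 fold change of 0.02 in d9-20 and 0.01 in d28-30 against wt, and the 26 tested genes with a window and no match had -0.02 and 0.02. Without d28-30 replicate 2, the d28-30 medians were -0.05 and -0.02. Neither set held a gene past the threshold.

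Lists of related genes were described the same way. Of 114 further repair genes, all tested, edgeR's test called 0 in d9-20 against wt, with 1 at an unadjusted p below 0.05. Their median log2 fold changes against wt were -0.00 in d9-20 and 0.01 in d28-30 (-0.02 without replicate 2), with 56 above and 58 below 0 in d9-20 and 59 above and 55 below 0 in d28-30. Their summed level was 8026 to 8272 CPM in wt, 7954 to 8234 CPM in d9-20 and 7956 to 8469 CPM in d28-30, so the genotypes overlapped. Of the 45 repair genes, Fanca, Wrn and Lig4 share chromosome 8 with Zfp423 and lie 35.3, 54.3 and 77.7 Mb from it.

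Genes that the damage-activated factor p53 turns on had medians close to 0. Of 28 such genes 26 were tested, with median log2 fold changes of 0.01 in d9-20 and in d28-30 against wt, the latter 0.05 without d28-30 replicate 2. The cell cycle inhibitor Cdkn1a was at 10.3 ± 0.931 CPM in wt, 10.1 ± 1.37 in d9-20 and 10.8 ± 1.55 in d28-30, and Mdm2, the feedback inhibitor of p53, at 67.6 ± 3.06, 68.7 ± 1.58 and 75.2 ± 8.89 CPM. Both are given as the best known targets, chosen after their values were seen. Pmaip1, which encodes the pro-apoptotic protein NOXA, was the gene past the threshold, at 3.64 ± 1.05 CPM in wt, 10.8 ± 1.12 in d9-20 and 11.9 ± 1.65 in d28-30, with log2 fold changes of 1.57 ± 0.19 (adjusted p = 0.0104) and 1.71 ± 0.19 (adjusted p = 0.00477). Its d9-20 call was lost without wt replicate 1, d9-20 replicate 1 or d9-20 replicate 2 and with a covariate for the share of red blood cell genes, with adjusted p up to 0.102.

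Markers of proliferating cells also had medians close to 0. Of 38 such genes, edgeR's test called 0 in either mutant against wt, with 0 in d9-20 and 1 in d28-30 at an unadjusted p below 0.05, and the medians were -0.01 and -0.03, the latter -0.01 without d28-30 replicate 2. In d9-20, 15 lay above and 23 below 0, and in d28-30 16 above and 22 below (15 and 23 without replicate 2). Their summed level was 9858 to 9918 CPM in wt, 9587 to 9834 CPM in d9-20 and 9736 to 10564 CPM in d28-30. All d9-20 sums thus lay below all wt sums, and those of d28-30 overlapped wt. The early neuron genes were less even: 16 of 17 lay below wt in d9-20, with a median of -0.39, and 14 of 17 lay above wt in d28-30, with a median of 0.20 (17 of 17 and 0.16 without replicate 2). In edgeR's test 0 of them passed the adjusted threshold in either comparison. At an unadjusted p below 0.05 there were 5 and 3, beside 5.96% and 8.08% of all genes. Their sum was 706 to 1120 CPM in wt, 549 to 968 CPM in d9-20 and 1018 to 1157 CPM in d28-30. Other cell types were uneven too. In d9-20, 11 of 11 red blood cell genes lay below wt (median -0.59) and 10 of 10 neural crest genes above (median 0.22). In edgeR's test 0 of either list passed the adjusted threshold, with 10 and 5 at an unadjusted p below 0.05. In d28-30, 9 of 11 lay below and 6 of 10 above (10 of 11 and 7 of 10 without replicate 2). Whether the mix of cell types bears on the levels of repair genes was not tested.

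**Figure D4:**
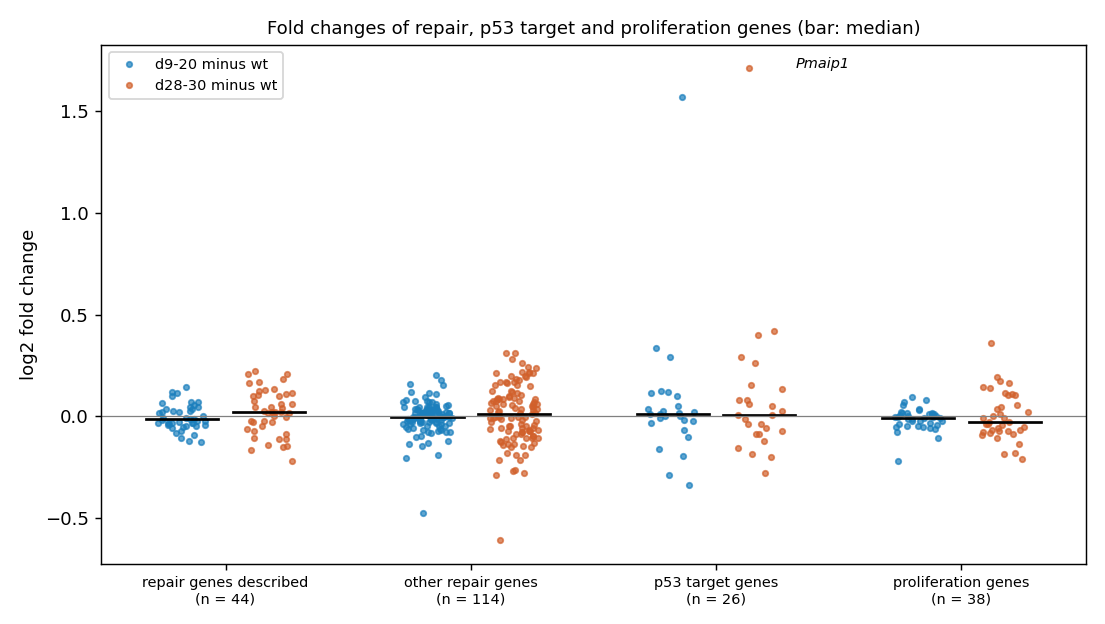
Log2 fold change against wt of the 44 repair genes described, 114 other repair genes, 26 p53 target genes and 38 proliferation genes, in d9-20 (blue) and d28-30 (orange), with 1 point a gene and bars at the medians. All medians lie close to 0, and Pmaip1 stands above the rest at 1.57 and 1.71.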

How the data were processed

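The authors deposited raw read counts, as whole numbers by gene symbol, for 9 libraries. Per the labels, each came from 500 ng of total RNA made into a stranded library and read as single 75-nt reads. The submitters' processing notes name STAR 2.5.3a, featureCounts, limma and the build mm10 (GRCm38). For the counting, annotation and strand setting were not given in the sources used here, so reads over overlapping genes may be shared or lost.

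Counts were tested in R 4.3.3 with edgeR 4.0.16: filterByExpr by genotype (15695 of 48587 genes kept), TMM factors, 1 quasi-likelihood fit of all 9 libraries with genotype as the factor, and Benjamini-Hochberg adjustment over all genes tested with a threshold of 0.05. CPM values use TMM-scaled totals. Standard errors are the log2 fold change over the square root of F, and 95% intervals are per gene. The square root of the common dispersion was 0.110. Lengths and GC content come from the APPRIS principal transcript of GENCODE M21, and 97.1% of tested genes had one. Figures of deviations use log2 CPM with a prior count of 2. Limits of 3 counts cover counting error only.

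The members, lists and tests were chosen with earlier results of these data known. Values are given in every library for the 3 members of each role group with the smallest p for any difference, for 8 central genes and for the highest and lowest member per length. Other members are given by range and count unless the text says otherwise. Genes of other lists are named when past the threshold, except 1 result that is not reported here.

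Same-numbered libraries of wt and d9-20 deviated together across genes (r of 0.133, 0.269 and 0.494). Of the differently numbered pairs, wt replicate 2 and d9-20 replicate 1 had an r of 0.20, and the others ran from -0.39 to 0.08. As 0.20 exceeds the lowest same-numbered value, the check did not settle whether the numbers pair these groups. The main fit has no block, and the replicate block, over all 3 genotypes, is an alternative setting. For same-numbered libraries of wt and d28-30 r was -0.21, 0.196 and 0.243, and for the mutants 0.0951, 0.162 and 0.229. These were not taken as paired either. All pairs of libraries within a genotype differed by more than sampling noise. The code was tested on simulated data. Alternatives were DESeq2 1.42.0, limma-voom (limma 3.58.1), other scalings, no filter, other samples, covariates, a replicate block, a GC correction (loess span 0.3) added after seeing the data, and leaving out each library.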

Additional observations from a re-analysis of the deposited data

How the results depend on the processing

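The count of repair genes past the threshold was 0 in each comparison under all 20 alternative settings, leaving out each library included. The median log2 fold change of the 44 genes kept within the spread between libraries, an SD of 0.0573, in 76 of 79 results from these settings. That spread was largely set by d28-30 replicate 2, whose repair genes deviated by a median of 0.127, beside -0.0334 to 0.0228 in the other libraries. It therefore let pass a change from 0.02 to -0.03 in d28-30 against wt when that library was left out. The 3 results outside the spread concerned d9-20 against d28-30, where the median was -0.0414. This median became 0.0348 without d28-30 replicate 2, 0.0312 with the GC correction and 0.0317 with the GC correction and the replicate block. Leaving out 1 library gave medians of -0.04 to 0.01 in d9-20 against wt, -0.03 to 0.05 in d28-30 against wt, -0.0840 to 0.0348 between the mutants and -0.02 to 0.02 for the mean of both mutants.

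Counts over all genes moved more. In d9-20 against wt, 26 genes became 6 to 93 when 1 library was left out, 121 with DESeq2, 148 without a filter on low counts, 40 with only the genotypes compared, 13 with the Y-linked covariate, 5 with the red blood cell covariate, 55 with the replicate block, 127 with the GC correction and 200 with both. In d28-30 against wt, 25 became 10 to 33, 95 with DESeq2, 98 without a filter, 12 with only the genotypes compared, 101 with the GC correction, 48 with the replicate block and 141 with both. Between the mutants, 0 became 0 to 4, 79 with DESeq2, 133 without a filter, 14 with the GC correction, 2 with the block and 57 with both. For the mean of both mutants, 40 became 14 to 75, 118 with DESeq2, 113 without a filter, 19 and 25 with the Y-linked and red blood cell covariates, 165 with the GC correction, 69 with the block and 197 with both. The cause was not tested. With the replicate block the smallest adjusted p of the repair genes was 0.283 in d28-30 against wt, 0.295 between the mutants and 0.483 for the mean of both, and it called none of them. With the red blood cell covariate, the repair genes above and below 0 in d9-20 against wt went from 18 and 26 to 13 and 31. Atrip, at 2 to 8 counts per library, could not be tested at this count.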
